A study of Canis lupus familiaris with 15 samples.

Results

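Luteal regression in non-pregnant dogs was compared with luteolysis induced by an antigestagen in pregnant dogs, in RNA-Seq libraries of the corpus luteum (CL), the ovarian gland that secretes progesterone (P4). The comparison took in 7 of the 15 libraries, 2 of luteal regression and 5 of the antigestagen group, chosen by their condition labels, with 1 library per dog. The contrast “luteal regression over antigestagen” set 2 endings of luteal life side by side, a late spontaneous regression and a drug-induced one.

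All dogs were clinically healthy cross-breed bitches aged 2 to 8 years, and the CL were taken at routine ovariohysterectomy. The luteal regression dogs were non-pregnant, untreated and at day 65 after ovulation. The antigestagen dogs were pregnant, at days 40 to 45, and had received aglepristone, a blocker of the P4 receptor, at 10 mg/kg body weight in 2 applications 24 h apart, with the CL collected 24 h after the second application. The other libraries were from 5 untreated pregnant dogs at mid-gestation (days 35 to 40) and 3 pregnant dogs at prepartum luteolysis, and they entered the fit for the spread between dogs. Pregnancy, cycle day, treatment and any place or time of collection differed together between the 2 groups and cannot be told apart.

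The CL is the main source of P4 throughout canine pregnancy, and the non-pregnant dog keeps its CL for a similar time. In the non-pregnant dog the gland is known to regress slowly, without a uterine luteolytic signal. Before parturition P4 falls steeply, and blocking the P4 receptor in mid-gestation is an established way to end pregnancy. Luteal cells build steroids from cholesterol, which they take up from lipoproteins, release from stored esters or synthesise, and a dense capillary bed supplies them.

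Total counts were 16648029 and 16523232 in the luteal regression libraries and ran from 8558743 to 21247518 in the antigestagen libraries, lowest in antigestagen dog 1. The 10 most abundant genes of a library held 9.93% and 11.9% of its counts in luteal regression, 11.9% to 14.5% in antigestagen dogs 1 to 3, and 19.7% and 20.6% in antigestagen dogs 4 and 5. TMM scaling factors were 1.23 and 1.18 in luteal regression and from 0.823 to 1.14 in the antigestagen group. The 2 luteal regression libraries correlated with each other at a Spearman coefficient of 0.983 across genes, and pairs of antigestagen libraries at 0.941 to 0.984. Read counts of every pair of libraries within a group differed by more than sampling noise, with a chi-squared statistic per degree of freedom of 32.1 to 145.4, so each library was counted as its own replicate.

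Of 14578 genes tested, none was a differentially expressed gene (DEG, unadjusted p below 0.01 and adjusted p below 0.1) in edgeR's quasi-likelihood test with Benjamini-Hochberg adjustment, which is 0% of the genes tested. The smallest adjusted p was 0.132. At an unadjusted p below 0.05 there were 2496 genes, and at an unadjusted p below 0.01 there were 697. Of these 697, 233 (1.6% of genes tested) had the higher and 464 (3.18%) the lower level in luteal regression. The number of DEG depended on the tool: DESeq2's Wald test, the test used in the study's methods, gave 920 DEG on the same counts (250 higher and 670 lower in luteal regression), and limma-voom with quality weights gave 2408 (1063 higher and 1345 lower). Of the 920, 678 were among the 697 genes at p below 0.01 in edgeR. The voom weights were 2.16 and 2.17 for the luteal regression libraries and 0.478 and 0.378 for antigestagen dogs 4 and 5. Without antigestagen dog 1 edgeR itself gave 91 DEG. No gene is therefore described here as having risen or fallen, and the genes below are given by their levels in each dog, with log2 ratio ± SE and edgeR adjusted p.

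Both luteal regression dogs lay above all 5 antigestagen dogs in 2081 genes (14.3% of genes tested) and below all 5 in 2246 genes (15.4%). Against the 10 mid-pregnant dogs together, treated or not, the 2 luteal regression dogs stood outside the range in 2463 genes (16.9%), and against all 13 other dogs in 1431 (9.82%). The median log2 ratio over all genes was -0.02, but it followed abundance. It was 0.61 in the lowest of 10 equal bins of mean level and -0.24 in the highest, and 124 of the 464 genes at p below 0.01 with the lower level in luteal regression were in that highest bin.

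Gene names were taken from the study's own tables of DEG, so the 2882 named genes tested were those the study had called in contrasts that share these dogs. They were no random part of the transcriptome: 13.8% of named and 2.56% of unnamed genes had p below 0.01. In named genes, 125 (4.34%) were higher and 272 (9.44%) lower in luteal regression at p below 0.01, with a median log2 ratio of -0.17. Both luteal regression dogs lay above all antigestagen dogs in 506 named genes (17.6%) and below them in 745 (25.9%). Log2 ratios were below 0 in 7504 of the 14578 genes tested and in 1709 of the 2882 named genes. The other 1173 named genes were above 0. These shares are the background for every list of genes that follows. Genes were named by their rank in a list and by fixed choice, and further members of each list were picked after their values had been seen.

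**Figure D1:**
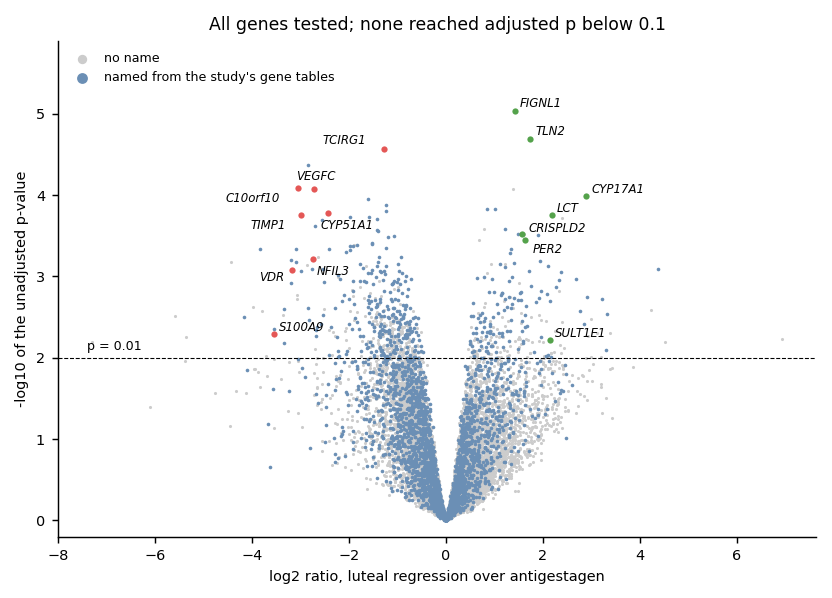
Each point is 1 of 14578 genes, with the log2 ratio of luteal regression over antigestagen on the x axis and -log10 of edgeR's unadjusted p-value on the y axis. Blue points are named genes, grey points unnamed ones, and the dashed line marks the 0.01 level. Green and red points mark genes given in the text with the higher and the lower level in luteal regression, and no gene reached the adjusted threshold.

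Among genes of steroid synthesis, the steepest contrast was in CYP17A1, the 17-alpha-hydroxylase that turns P4 into precursors of androgens. Its level was 589.7 and 857 CPM (counts scaled to a common library size after TMM) in the luteal regression dogs, and 90.9, 110.5, 205, 27.1 and 56.4 CPM in antigestagen dogs 1 to 5. Both luteal regression dogs were above every antigestagen dog, with a log2 ratio of 2.88 ± 0.55 (SE) and an adjusted p = 0.14 in edgeR. The log2 ratio of luteal regression over mid-gestation was 0.61 (adjusted p = 0.619) and that of antigestagen over mid-gestation -2.27 (adjusted p = 0.305), from a mid-gestation mean of 473 CPM. The groups in these 3 contrasts are shared, so they are 3 views of the same libraries.

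2 further enzymes were on the other side. HSD3B7, a 3-beta-hydroxysteroid dehydrogenase known for bile acid synthesis, had 38.1 and 39.9 CPM in luteal regression and 69.7, 76.0, 74.0, 107 and 117 CPM in the antigestagen dogs (log2 ratio -1.19 ± 0.26, adjusted p = 0.149). HSD17B12, which acts on oestrone and in fatty acid elongation, had 133 and 159 CPM against 339, 255, 308, 601 and 484 CPM (log2 ratio -1.45 ± 0.36, adjusted p = 0.154). In both genes the groups did not overlap and the 2 luteal regression dogs lay close together.

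CYP1B1, which hydroxylates oestrogens, had 407 and 455 CPM in luteal regression and 305, 166, 110.4, 110.0 and 181 CPM in the antigestagen dogs (log2 ratio 1.31 ± 0.41, adjusted p = 0.19). SULT1E1, the oestrogen sulfotransferase, was a low-count gene, at 1.17 and 1.28 CPM against 0.333, 0.205, 0.436, 0.177 and 0.202 CPM (log2 ratio 2.14 ± 0.67, adjusted p = 0.19). The mean antigestagen count of SULT1E1 was below the 10 asked of a tested gene. Between these 2 groups it was therefore tested only through luteal regression, where it was high, and its ratio and p rest on that selection. Its mid-gestation mean of 1.08 CPM was near the luteal regression level. Of the 8 members of the steroidogenesis list with a name, 3 were higher and 2 lower in luteal regression at p below 0.01, and no member was a DEG. Over all named genes, 4.34% were higher and 9.44% lower at p below 0.01. By DESeq2, the same numbers of the 8 members were DEG (3 higher and 2 lower). AKR1B1, an aldo-keto reductase that can form prostaglandin F2-alpha, overlapped between the groups (log2 ratio -1.37 ± 0.83), as did HSD11B2, which inactivates cortisol (log2 ratio -0.71 ± 0.44). The genes for key steps STAR, CYP11A1, HSD3B1 and HSD3B2 had no name in the sources used here and were not analysed.

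**Figure D2:**
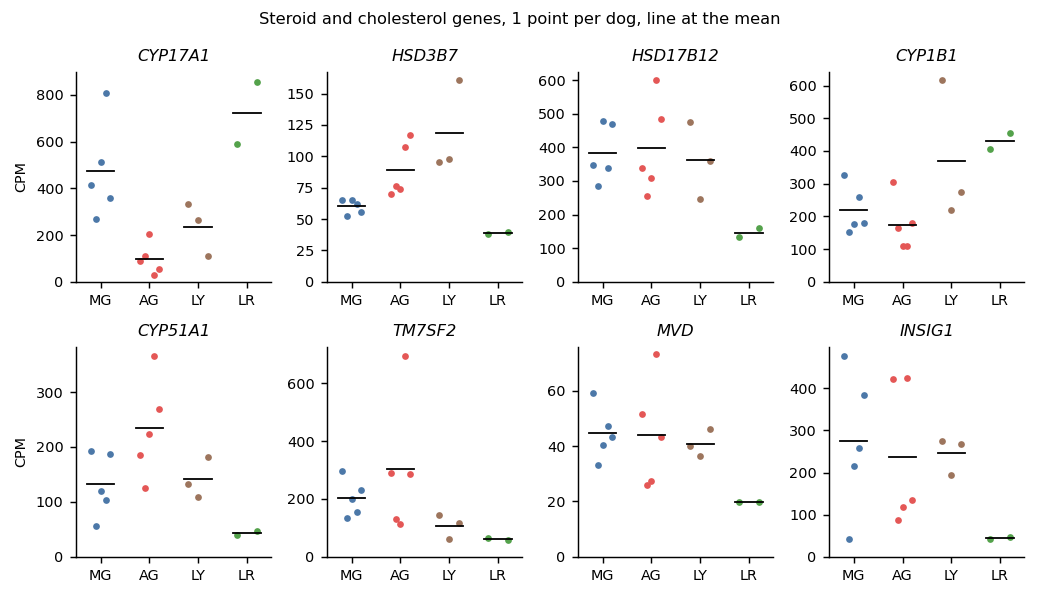
Level in CPM on the y axis, from 0, of 4 genes of steroid metabolism and 4 of cholesterol synthesis in mid-gestation (MG), antigestagen (AG), luteolysis (LY) and luteal regression (LR), with 1 point per dog and a line at the group mean. CYP17A1 and CYP1B1 lie above all antigestagen dogs in luteal regression, and the other 6 genes lie below them.

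Of 8 named genes of cholesterol uptake and synthesis, both luteal regression dogs lay below every antigestagen dog in 5 and above them in 1. Over all named genes these shares were 25.9% and 17.6%. CYP51A1, the lanosterol demethylase, had 39.2 and 47.5 CPM in luteal regression against 185, 125, 224, 366 and 269 CPM (log2 ratio -2.43 ± 0.49, adjusted p = 0.14). TM7SF2, a sterol reductase further along the same path, had 65.4 and 58.3 CPM against 289.6, 129.8, 113, 694 and 286 CPM (log2 ratio -2.29 ± 0.63, adjusted p = 0.176). The antigestagen dogs spread widely in both genes, with dog 4 highest.

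MVD, the mevalonate diphosphate decarboxylase, had 19.8 and 19.7 CPM against 51.6, 25.8, 27.3, 73.2 and 43.2 CPM (log2 ratio -1.16 ± 0.35, adjusted p = 0.184). INSIG1, which holds back the transcription factor SREBP and is itself an SREBP target, had 41.9 and 47.6 CPM against 423, 87.7, 117, 425 and 135 CPM (log2 ratio -2.41 ± 0.81, adjusted p = 0.208). SCAP, the escort of SREBP, had a log2 ratio of -0.97 ± 0.40 (adjusted p = 0.25), also without overlap. VLDLR, a lipoprotein receptor, was the one member with the higher level in luteal regression, at 33.3 and 25.9 CPM against 14, 16.4, 18.6, 11.7 and 9.19 CPM (log2 ratio 1.08 ± 0.30, adjusted p = 0.179). In all, 8 of the 39 genes of this list had a name. At p below 0.01, 4 were lower and 1 higher, against 9.44% and 4.34% of named genes. DESeq2 gave the same counts, 4 lower and 1 higher, as DEG. The median log2 ratio was -1.07, against -0.02 over all genes and -0.17 over named genes. The uptake receptor SCARB1 was not analysed here.

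Of 11 named genes of lipid storage, 2 were lower in luteal regression at p below 0.01 and none higher. The shares over all named genes were 9.44% and 4.34%. The median log2 ratio of the list was -0.52. PNPLA2, the triglyceride lipase of lipid droplets, had 29.6 and 32.0 CPM in luteal regression against 61.7, 52.6, 62.1, 88.1 and 97.0 CPM (log2 ratio -1.23 ± 0.28, adjusted p = 0.149). ACSL3, which activates fatty acids at the droplet, had 72.4 and 67.2 CPM against 102, 92.1, 113, 119.8 and 134 CPM (log2 ratio -0.69 ± 0.21, adjusted p = 0.19). Both genes were without overlap.

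Of all lists, the circadian clock had the most members at p below 0.01, 6 of 7, against 13.8% of named genes. Period and D-box genes form the feedback loop and the output of the cellular clock, and NFIL3 acts at D-box sites as a repressor. PER2 was at 42.1 and 63.2 CPM in luteal regression and 24.7, 14.4, 15.3, 10.4 and 20.2 CPM in the antigestagen dogs (log2 ratio 1.64 ± 0.36, adjusted p = 0.149), and PER3 at 149 and 136 CPM against 90.7, 46.1, 52.1, 27.5 and 27.0 CPM (log2 ratio 1.55 ± 0.41, adjusted p = 0.171). In both the lower of the 2 luteal regression dogs was above antigestagen dog 1, the highest of its group.

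The D-box activators HLF and TEF and the repressor NR1D2 were arranged alike. HLF had 74.6 and 70.6 CPM against 47.5, 32.5, 20.1, 25.0 and 44.5 CPM (log2 ratio 1.10 ± 0.34, adjusted p = 0.184). TEF had 20.9 and 23.9 CPM against 11.8, 10.3, 12.1, 14.7 and 9.69 CPM (log2 ratio 0.93 ± 0.30, adjusted p = 0.198). NR1D2, a haem-binding nuclear receptor, had 239.5 and 253 CPM against 210.4, 125, 121, 105 and 133 CPM (log2 ratio 0.83 ± 0.26, adjusted p = 0.188). None of these 3 overlapped between the groups.

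NFIL3 was the clock gene on the opposite side, with 62.0 and 17.2 CPM in luteal regression and 107, 224, 278, 261 and 451 CPM in the antigestagen dogs (log2 ratio -2.74 ± 0.64, adjusted p = 0.154). The 2 luteal regression dogs differed from each other, and the log2 ratio ran from -3.94 to -2.09 as single dogs were left out. In mid-gestation its mean was 95.8 CPM. CRY2, a repressor of the loop, overlapped through antigestagen dog 5 (log2 ratio 0.49 ± 0.22, adjusted p = 0.277). Of the 7 clock genes with a name, of 20 listed, 5 were higher and 1 lower at p below 0.01, and DESeq2 called these numbers DEG. Among named genes 4.34% were higher and 9.44% lower at p below 0.01. The hour at which the CL were taken is not given in the sources used here.

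**Figure D3:**
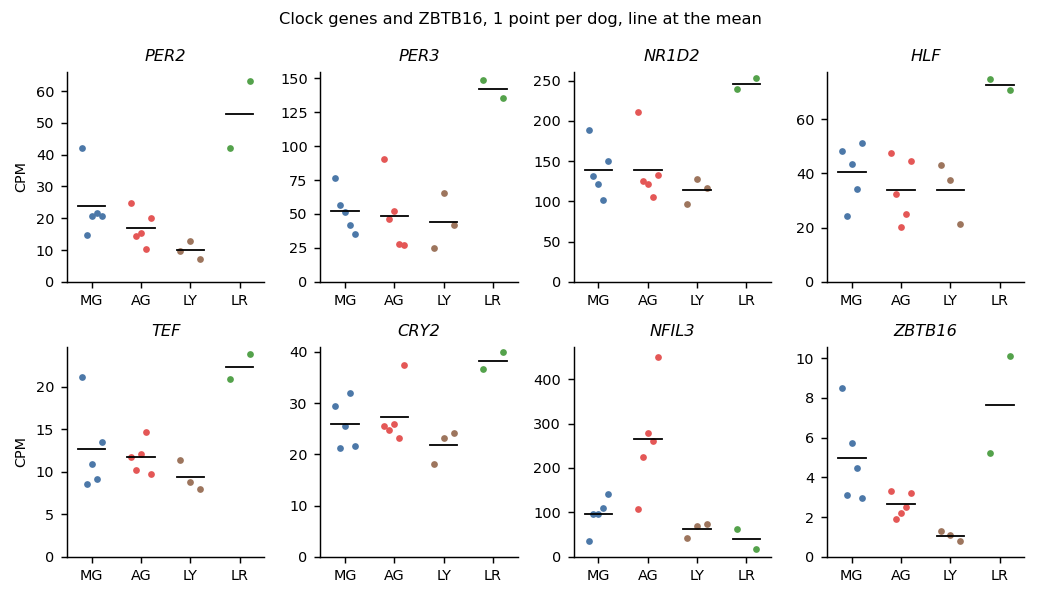
Level in CPM on the y axis, from 0, of the 7 named clock genes and of ZBTB16 in mid-gestation (MG), antigestagen (AG), luteolysis (LY) and luteal regression (LR), with 1 point per dog and a line at the group mean. PER2, PER3, NR1D2, HLF, TEF and ZBTB16 lie above all antigestagen dogs in luteal regression, NFIL3 lies below them, and CRY2 overlaps.

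Genes that respond to glucocorticoids and progestins in many tissues were split. ZBTB16, a transcription factor, had 5.23 and 10.1 CPM in luteal regression against 3.33, 1.90, 2.22, 2.48 and 3.23 CPM (log2 ratio 1.55 ± 0.40, adjusted p = 0.169). KLF15 had 21.2 and 32.5 CPM against 18.0, 14.6, 15.8, 8.28 and 15.2 CPM (log2 ratio 0.90 ± 0.27, adjusted p = 0.184), and CRISPLD2, a secreted protein that binds lipopolysaccharide, 572 and 896 CPM against 290.1, 300.0, 319.9, 150.1 and 183 CPM (log2 ratio 1.56 ± 0.33, adjusted p = 0.149). For ZBTB16 and CRISPLD2 the antigestagen mean lay below the mid-gestation mean, with log2 ratios of antigestagen over mid-gestation of -0.93 and -0.95 (adjusted p = 0.613 and adjusted p = 0.509). In contrast, PDK4, a kinase that limits glucose oxidation, overlapped (log2 ratio -1.26 ± 0.53, adjusted p = 0.257). Of 10 members 3 were higher at p below 0.01 and none lower, against 4.34% and 9.44% of named genes. The median log2 ratio, however, was -0.11. Among the alternatives that turned its sign it was 0.02 without antigestagen dog 4, 0.04 without luteal regression dog 2 and 0.07 in limma-voom.

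Of 12 named genes of hormone receptors and their cofactors, 1 was higher and 1 lower in luteal regression at p below 0.01, and both luteal regression dogs lay above the antigestagen range in 4 and below it in 2. Among named genes 4.34% were higher and 9.44% lower at that level, with 17.6% above the range and 25.9% below it. NR3C1, the glucocorticoid receptor, had 160.2 and 148 CPM in luteal regression against 135, 101, 103, 85.5 and 102 CPM (log2 ratio 0.55 ± 0.18, adjusted p = 0.198). VDR, the vitamin D receptor, had 8.90 and 3.85 CPM against 23.3, 42.7, 105, 67.1 and 50.7 CPM (log2 ratio -3.18 ± 0.77, adjusted p = 0.154). ESR1, the oestrogen receptor alpha, was 19.2 and 27.5 CPM against 25.5, 19.5, 21.8, 12 and 24.7 CPM, with a log2 ratio of 0.17 ± 0.39 and a 95% confidence interval from -0.67 to 1.02, and without luteal regression dog 2 its sign turned (-0.11).

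Among receptors that maintain or end luteal function, both luteal regression dogs were below the antigestagen group in PRLR, FSHR and TNFRSF1A. PRLR, the receptor of prolactin, the main luteotropic hormone of the dog, had 104 and 65.8 CPM in luteal regression against 121, 175, 160.1, 157 and 149 CPM (log2 ratio -0.85 ± 0.30, adjusted p = 0.212). FSHR had 615 and 609 CPM against 744, 1172, 1325, 1508 and 1944 CPM (log2 ratio -1.13 ± 0.35, adjusted p = 0.188), and TNFRSF1A, the receptor for the cytokine TNF, 25.3 and 24.4 CPM against 41.6, 40.7, 40.0, 66.0 and 57.6 CPM (log2 ratio -0.98 ± 0.25, adjusted p = 0.169). Compared with mid-gestation, the antigestagen level of PRLR and FSHR was higher (log2 ratios 0.55 and 0.66, adjusted p = 0.644 and adjusted p = 0.617) and that of luteal regression lower (-0.30 and -0.47, adjusted p = 0.633 and adjusted p = 0.51), and none of these contrasts was a DEG. RXFP1, the relaxin receptor, had 17.8 and 10.1 CPM against 11.3, 6.87, 4.27, 2.13 and 4.64 CPM and overlapped (log2 ratio 1.27 ± 0.64, interval -0.09 to 2.62). Of the 7 named receptors of this list 2 were lower at p below 0.01 and none higher, against 9.44% and 4.34% of named genes. LHCGR, PGR, PTGFR and PTGS2 were not analysed here.

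The transcription factors GATA4 and GATA6, which drive steroidogenic genes, had log2 ratios of 0.34 ± 0.22 (interval -0.13 to 0.80) and 0.39 ± 0.24 (interval -0.11 to 0.89), and neither was past p below 0.05. In GATA4 both luteal regression dogs lay above every antigestagen dog, whereas GATA6 overlapped. GATA6 was at 32.3 and 50.6 CPM in luteal regression, and without luteal regression dog 2 its log2 ratio was 0.03. CEBPB, a factor induced by luteinising hormone, had 6.21 and 7.34 CPM against 8.34, 10.00, 16.3, 20.5 and 33.6 CPM (log2 ratio -1.39 ± 0.51, adjusted p = 0.217). Of 5 named genes of the prostaglandin pathway none was past p below 0.01, and their median log2 ratio was -1.35. PTGES, the prostaglandin E synthase, overlapped through luteal regression dog 2, with 7.68 and 13.1 CPM against 13.7, 13.0, 38.4, 35.8 and 31.5 CPM (log2 ratio -1.35 ± 0.52, adjusted p = 0.233). PTGDS, the prostaglandin D synthase, was at 149 and 160.0 CPM against 90.5, 75.0, 69.9, 27.7 and 86.2 CPM (log2 ratio 1.14 ± 0.40, adjusted p = 0.211), without overlap.

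Both luteal regression dogs lay below every antigestagen dog in 6 of 8 named genes of blood and lymph vessel growth. The share over all named genes was 25.9%. VEGFC, a growth factor for lymphatic endothelium, had 24.9 and 19.2 CPM in luteal regression against 68.1, 122, 107, 217 and 212 CPM (log2 ratio -2.72 ± 0.51, adjusted p = 0.14). Its receptor FLT4 had 46.0 and 43.0 CPM against 59.2, 73.3, 98.0, 121 and 107 CPM (log2 ratio -1.04 ± 0.28, adjusted p = 0.171). DLL4, the Notch ligand of sprouting capillaries, had 26.8 and 26.8 CPM against 58.8, 37.4, 69.2, 75.0 and 64.4 CPM (log2 ratio -1.18 ± 0.36, adjusted p = 0.184). In these 3 genes the groups did not overlap, and ENG, ROBO4 and TEK, endothelial receptors, did not overlap either, with log2 ratios of -1.06, -1.61 and -0.81. At p below 0.01, 3 of the 8 angiogenesis genes were lower and none higher, against 9.44% and 4.34% of named genes. The median log2 ratio of the list was -1.05, and -0.75 without antigestagen dogs 4 and 5. By DESeq2 5 of the 8 genes were DEG, all lower, against 670 lower of the 14578 genes tested.

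The summed level of the 5 endothelial markers measured, of 12 listed, was 269.3 and 279.9 CPM in luteal regression and from 444.4 to 947.5 CPM in the antigestagen group. Of these 5, TEK and ROBO4 are also members of the angiogenesis list, PLVAP overlapped between the groups, and VWF was the 1 marker at p below 0.01. VWF, the von Willebrand factor, had 120.2 and 124 CPM against 214, 226, 369.7, 444 and 298 CPM (log2 ratio -1.35 ± 0.40, adjusted p = 0.183). In whole tissue, fewer cells of a type and less RNA per cell cannot be told apart, and the part of cell composition in the vessel genes was not tested.

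Marker sums of macrophages, neutrophils and general leukocytes lay below the antigestagen range in both luteal regression dogs. Each sum held only markers with a name, which the study had called in contrasts that share these dogs. The 5 macrophage markers measured, of 12 listed, summed to 98.1 and 98.9 CPM in luteal regression and to 168.03 to 321.2 CPM in the antigestagen group. MRC1, the 1 macrophage marker at p below 0.01, gave 49.4 and 53.0 CPM of the luteal regression sums. AIF1 overlapped between the groups. The 3 neutrophil markers, of 8 listed, summed to 7.63 and 2.16 CPM against 20.6 to 44.5 CPM. The 3 general leukocyte markers, of 6 listed, summed to 776.9 and 636.4 CPM against 1029.6 to 1519.9 CPM. CD74, the invariant chain of class II antigen presentation, made up most of that last sum, at 753 and 619.9 CPM in luteal regression. S100A9, a protein of neutrophil granules, had 2.20 and 0.205 CPM against 23.1, 7.59, 7.23, 11.2 and 22.4 CPM (log2 ratio -3.55 ± 1.09, adjusted p = 0.185). The 3 T and NK cell markers overlapped, at 9.49 and 6.47 CPM against 7.11 to 16.3 CPM. No B cell, erythroid or oocyte marker had a name.

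Among chemokine genes, ACKR1, a receptor that binds chemokines on venules, had 12.9 and 5.9 CPM in luteal regression against 32.9, 60.8, 46.0, 107 and 59.9 CPM (log2 ratio -2.70 ± 0.57, adjusted p = 0.149). CCL14 had 3.23 and 3.54 CPM against 8.23, 10.4, 13.6, 33.3 and 32.7 CPM (log2 ratio -2.53 ± 0.61, adjusted p = 0.154) and CCL21, which draws lymphocytes and dendritic cells to lymph vessels, 4.30 and 5.9 CPM against 9.67, 14.1, 18.0, 30.1 and 23.0 CPM (log2 ratio -1.90 ± 0.51, adjusted p = 0.175). Both luteal regression dogs were below the antigestagen range in all 3. Of 29 genes of the inflammatory list tested, of 33 with a name and 53 listed, 3 were lower at p below 0.01 and none higher. Among named genes 9.44% were lower and 4.34% higher at that level, so the count of lower genes was near the background. In this list 13 lay below the antigestagen range and 1 above, against 25.9% and 17.6% of named genes. That 1 was CXCL12, at 37.6 and 62.0 CPM against 32.9, 30.6, 28.8, 19.9 and 14.8 CPM (log2 ratio 0.97 ± 0.44, adjusted p = 0.281). The monocyte chemokine CCL2 differed widely between the 2 luteal regression dogs, at 49.3 and 7.85 CPM, against 117, 62.3, 154, 209 and 248 CPM (log2 ratio -2.47 ± 1.02).

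The complement genes C1QB and C1QC, subunits of the first component and products of macrophages, had log2 ratios of -2.11 ± 0.55 (adjusted p = 0.171) and -1.88 ± 0.54 (adjusted p = 0.179). C1QB was at 45.1 and 67.2 CPM against 128, 111, 206, 399.7 and 364 CPM. SERPINA1, the inhibitor of neutrophil elastase, was at 5.67 and 3.39 CPM against 27.8, 23.5, 22.1, 53.0 and 37.2 CPM (log2 ratio -2.85 ± 0.79, adjusted p = 0.176). Of 10 acute-phase and complement genes 4 were lower at p below 0.01 and none higher, against 9.44% and 4.34% of named genes. Below the antigestagen range were 7 of the 10, against 25.9% of named genes. C1R and C1S, the proteases of the first component, overlapped, with log2 ratios of -0.07 ± 0.30 and 0.01 ± 0.25.

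Antigen presentation was described from a list made after the values had been seen. All 7 genes of the dog major histocompatibility complex with a name had log2 ratios below 0, from -3.08 to -0.63. In 5 both luteal regression dogs lay below every antigestagen dog, against 25.9% of named genes. Of all 2882 named genes, 1709 were below 0. The class I gene DLA88 had 88.7 and 79.5 CPM in luteal regression against 509.9, 394, 389, 941 and 1327 CPM (log2 ratio -3.08 ± 0.69, adjusted p = 0.149), and the class II gene DLA-DRA1 423 and 519.8 CPM against 1202, 831, 1032, 1189.5 and 1096 CPM (log2 ratio -1.18 ± 0.47, adjusted p = 0.237). DLA88 is polymorphic and has near-identical copies, so its reads may have been divided between loci.

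**Figure D4:**
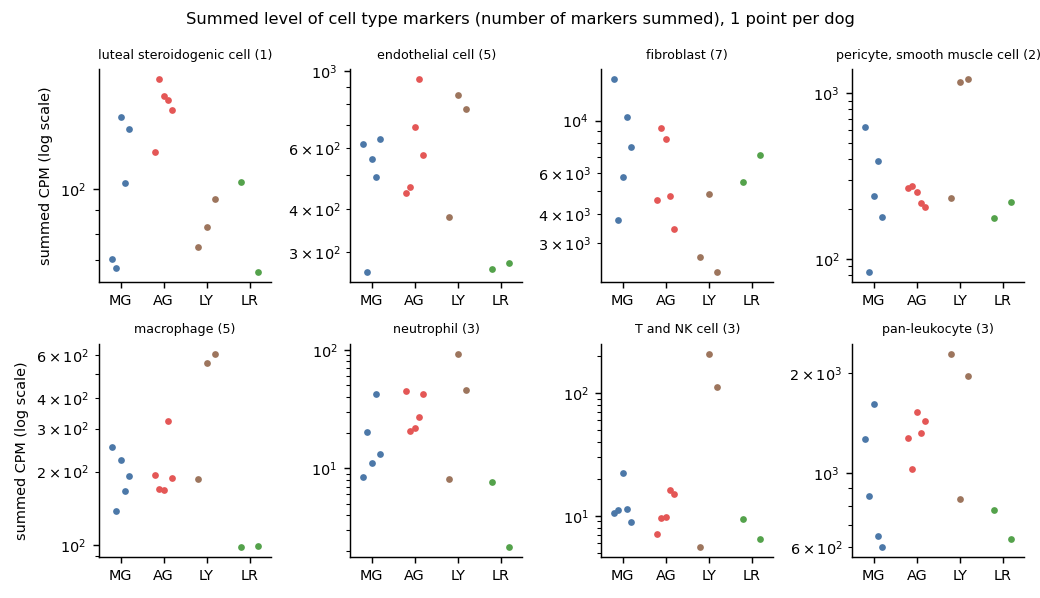
Summed CPM of marker genes on a log y axis for 8 cell types, with the number of markers measured in brackets, in mid-gestation (MG), antigestagen (AG), luteolysis (LY) and luteal regression (LR), with 1 point per dog. The endothelial, macrophage, neutrophil and general leukocyte sums, and PRLR as the single luteal marker, lie below all antigestagen dogs in luteal regression, and the fibroblast, pericyte and T and NK cell sums overlap.

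The matrix was mixed. The fibroblast marker sum (7 of 10 markers) overlapped, at 5484 and 7126 CPM in luteal regression against 3470 to 9336 CPM, and so did the interstitial collagens COL1A1 (log2 ratio -0.84 ± 0.66) and COL3A1 (-0.23 ± 0.51). PDGFRA, a receptor of fibroblasts, was higher in luteal regression, at 197 and 183 CPM against 111, 105, 78.4, 32.2 and 46.4 CPM (log2 ratio 1.35 ± 0.39, adjusted p = 0.181), whereas CD248, another fibroblast marker, was lower, at 7.38 and 7.34 CPM against 12.9, 18.5, 19.7, 25.8 and 19.7 CPM (log2 ratio -1.39 ± 0.30, adjusted p = 0.149). LAMA2, a laminin chain of basement membranes, had 348 and 368 CPM against 187, 156, 175, 85.7 and 125 CPM (log2 ratio 1.30 ± 0.34, adjusted p = 0.171). COL4A5 and COL8A2, collagens of basement membranes and vessel walls, were above the antigestagen range in both dogs (log2 ratios 0.93 ± 0.32 and 1.42 ± 0.48, adjusted p = 0.208 and adjusted p = 0.208).

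TIMP1, an inhibitor of matrix metalloproteinases, had 194 and 136 CPM in luteal regression against 421, 821, 1457, 1626 and 2239 CPM (log2 ratio -2.99 ± 0.61, adjusted p = 0.14). Its mean was 833 CPM in mid-gestation and 1387 CPM in luteolysis, so luteal regression was the low group. MMP1, a collagenase, was decided by 1 dog, at 14.1 and 0.103 CPM in luteal regression, and its log2 ratio turned from 2.48 ± 1.40 to -3.54 without luteal regression dog 1. Of 23 matrix glycoproteins and proteoglycans 2 were higher at p below 0.01 and none lower, against 4.34% and 9.44% of named genes. These 2 were LAMA2 and CRISPLD2, the latter also counted among the glucocorticoid-responsive genes. Of the 23, 11 lay above the antigestagen range and 2 below, against 17.6% and 25.9% of named genes. The median log2 ratio of this list was 0.46, and 0.08 without antigestagen dogs 4 and 5. Of 13 proteases and inhibitors tested 1 was lower at p below 0.01, near the 9.44% of named genes, and of 10 collagens none passed that level.

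Of 18 cell cycle genes, 17 had a log2 ratio above 0, against 1173 of all 2882 named genes. The median of the list was 1.07, with 0.66 without luteal regression dog 2 and 0.80 without antigestagen dogs 4 and 5. PLK1, a mitotic kinase, had 7.63 and 10.7 CPM in luteal regression against 4.67, 6.10, 4.14, 3.55 and 3.63 CPM (log2 ratio 1.05 ± 0.29, adjusted p = 0.175), and TPX2, a spindle protein, 9.05 and 15.4 CPM against 5.56, 8.82, 5.75, 3.19 and 2.73 CPM (log2 ratio 1.22 ± 0.43, adjusted p = 0.21). These were low-count genes, and 1 of 18 was higher at p below 0.01, against 4.34% of named genes. The mid-gestation means of 8.16 and 9.89 CPM were close to luteal regression, with log2 ratios of luteal regression over mid-gestation of 0.17 and 0.31. ASPM, also a spindle protein, was the member below 0 (log2 ratio -1.05 ± 0.49).

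Immediate-early genes were below 0 in 8 of 8 members, none with p below 0.01. Of all 2882 named genes, 1709 were below 0. JUN had 80.5 and 33.3 CPM in luteal regression against 134, 96.9, 135, 69.6 and 118 CPM and FOS 570.2 and 105 CPM against 1644, 899.8, 1303, 526 and 1008 CPM, with luteal regression dog 1 higher than dog 2 in both. The median log2 ratio of -0.98 over the list was -0.52 with dog 1 alone and -1.93 with dog 2 alone. Genes of the endoplasmic reticulum stress list were below 0 in 10 of 10 members (median -0.43). Those with p below 0.01 were SDF2L1, a chaperone cofactor (log2 ratio -1.46 ± 0.39, adjusted p = 0.171), and SESN2, a stress-inducible regulator of growth (log2 ratio -0.77 ± 0.23, adjusted p = 0.184). Of all named genes, 9.44% were lower at that level.

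Genes of apoptosis gave no member past p below 0.01 among 9. MCL1, which keeps cells alive, had 233 and 172 CPM in luteal regression against 279, 378, 369, 316 and 306 CPM (log2 ratio -0.70 ± 0.33, adjusted p = 0.29). CYCS, the cytochrome c released when cells die, had 54.1 and 67.2 CPM against 96.0, 76.8, 71.6, 116 and 117 CPM (log2 ratio -0.65 ± 0.26, adjusted p = 0.245). Nor did any of the 6 hypoxia genes, with -0.43 ± 0.30 for NDRG1 and -0.68 ± 0.52 for CA12, a carbonic anhydrase. In the TGF-beta list 1 of 13 was lower at p below 0.01, near the 9.44% of named genes. It was CITED1, a transcriptional co-activator, at 0.734 and 0.718 CPM against 1.11, 7.90, 4.05, 1.89 and 6.76 CPM (log2 ratio -2.57 ± 0.75, adjusted p = 0.181). TGFB1 itself overlapped (log2 ratio -0.90 ± 0.31, adjusted p = 0.21).

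**Figure D5:**
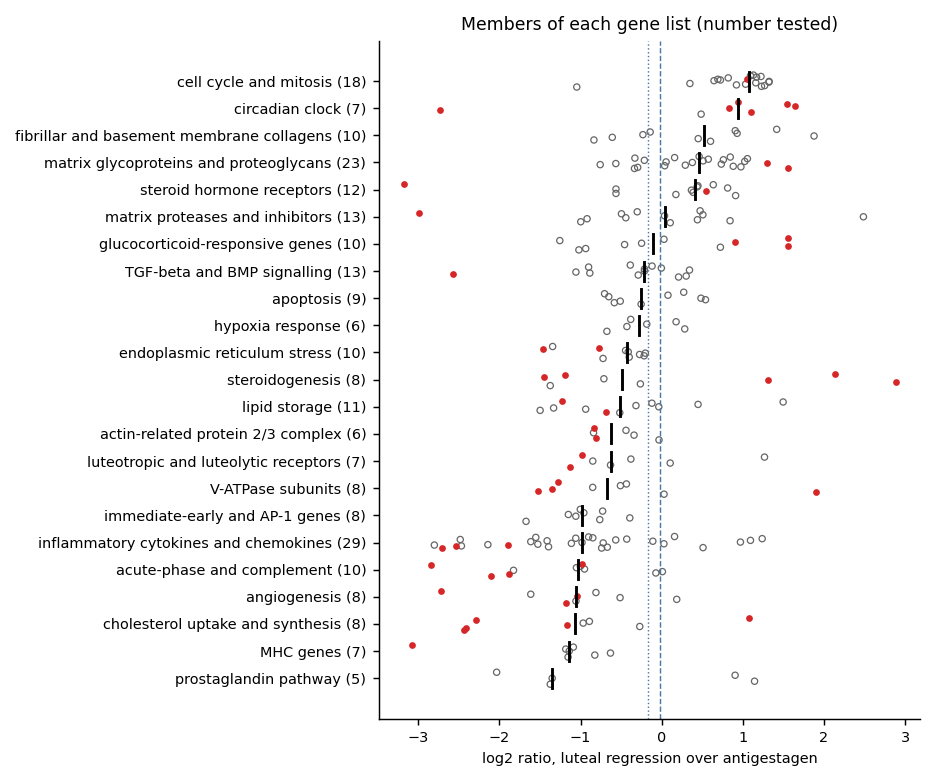
Log2 ratio of luteal regression over antigestagen on the x axis for the named members of each list except the steroidogenic regulators, with the number tested in brackets. Red points have an unadjusted p below 0.01, open points do not, and the black bar is the median of the list. The dashed line is the median of all genes (-0.02) and the dotted line that of named genes (-0.17). By their medians, the cell cycle and clock lists lie farthest to the right. The prostaglandin, histocompatibility, cholesterol, angiogenesis and complement lists lie farthest to the left.

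The named genes of smallest p without overlap, 15 in each direction, were chosen after the values had been seen. With the higher level in luteal regression, FIGNL1, a protein of DNA repair, led at 23.8 and 19.9 CPM against 7.45, 10.7, 7.71, 7.28 and 7.57 CPM (log2 ratio 1.42 ± 0.22, adjusted p = 0.132). It was the gene with the smallest p of all and became a DEG with DESeq2's size factors, with upper-quartile scaling, without the luteolysis dogs, with the filter raised to a mean of 50 counts, without antigestagen dog 1 or 2, and in DESeq2 and limma-voom. TLN2, a talin that links integrins to actin, followed at 127 and 41.9 CPM against 24.5, 27.6, 27.5, 23.8 and 23.7 CPM (log2 ratio 1.73 ± 0.29, adjusted p = 0.133), but its 2 luteal regression dogs were far apart, and the log2 ratio was 0.72 without dog 1 and 2.32 without dog 2. GLAST, the glutamate transporter SLC1A3, had 25.0 and 25.9 CPM against 10.8, 10.9, 10.1, 8.64 and 9.89 CPM (log2 ratio 1.34 ± 0.30, adjusted p = 0.149). LCT, lactase, was low at 7.92 and 5.13 CPM against 1.33, 1.74, 2.05, 0.414 and 1.62 CPM (log2 ratio 2.18 ± 0.44, adjusted p = 0.14). The rest of this group had log2 ratios from 0.85 to 1.95: PHKA2, ICK, FAM78B, RRH, RIMS2, ZNF114 and BAIAP3, beside CYP17A1, CRISPLD2, ATP6V0A4 and PER2.

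With the lower level in luteal regression, TCIRG1, a subunit of the proton pump (V-ATPase) that acidifies lysosomes, had 23.9 and 25.2 CPM against 54.4, 50.7, 56.4, 77.7 and 59.8 CPM (log2 ratio -1.28 ± 0.22, adjusted p = 0.133). 8 subunits of this pump had a name, a list made after TCIRG1 had been seen, and 3 of them were lower at p below 0.01. ATP6V0B and ATP6V0C were the others (log2 ratios -1.53 ± 0.37 and -1.35 ± 0.33). Of all named genes, 9.44% were lower and 4.34% higher at that level. The subunit ATP6V0A4 was on the other side, at 8.66 and 11.3 CPM against 4.22, 2.97, 2.61, 1.42 and 2.22 CPM (log2 ratio 1.90 ± 0.41, adjusted p = 0.149). In a second such list, the complex that branches actin filaments, 6 of 6 named members were below 0 and ARPC1B and ARPC5L had p below 0.01 (log2 ratios -0.81 ± 0.25 and -0.84 ± 0.26). Of all 2882 named genes, 1709 were below 0.

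C10orf10, a gene induced by progestins in endometrium and known as DEPP1, had 15.1 and 11.3 CPM in luteal regression against 64.6, 52.2, 115, 127 and 188 CPM (log2 ratio -3.05 ± 0.57, adjusted p = 0.14). SGCA, a sarcoglycan known from muscle, had 62.6 and 66.7 CPM against 206, 235, 433, 558 and 475 CPM (log2 ratio -2.56 ± 0.53, adjusted p = 0.14), and ARAF, a kinase of the MAP kinase path, 110.2 and 96.0 CPM against 157, 235, 291, 349 and 349.6 CPM (log2 ratio -1.42 ± 0.30, adjusted p = 0.149). ATG4D, a protease of autophagy, had 14.8 and 14.8 CPM against 26.5, 27.3, 34.9, 43.7 and 42.2 CPM (log2 ratio -1.24 ± 0.25, adjusted p = 0.14). The others, FAM167B, MFSD12, TMEM63B, ISLR, HYAL3 and KCNC4, had log2 ratios from -2.85 to -1.23, beside VEGFC, CYP51A1, TIMP1 and ACKR1.

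2 signs of tissue and RNA composition went with the groups. Reads assigned to the 5.8S ribosomal RNA were 13.9 and 19.1 CPM in luteal regression and 189, 48.2, 149, 371 and 424 CPM in the antigestagen dogs (log2 ratio -3.84 ± 0.86, adjusted p = 0.149), with means of 141 CPM in mid-gestation and 33.5 CPM in luteolysis. All libraries were enriched for polyadenylated RNA, and RNA integrity numbers were stated as a range only, 7.2 to 9.5. OVGP1, a marker of the oviduct, was at 31.3 and 22.6 CPM in luteal regression against 15.2, 13.9, 14.8, 5.21 and 5.96 CPM in the antigestagen dogs. The summed markers of pericytes (177 to 219 CPM against 205 to 274), granulosa and theca cells (1693 to 1982 against 1158 to 4737) and adipocytes (28.7 to 31.1 against 13.7 to 35.5) overlapped. Single markers within these sums did not all overlap. Of the granulosa and theca markers, CYP17A1 lay above and FSHR below every antigestagen dog, while INHBA and INSL3 overlapped. Of the adipocyte markers, CIDEC lay below every antigestagen dog and LPL overlapped. The part of tissue and RNA composition in the genes above was not tested.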

How the data were processed

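CL of 15 dogs were profiled by single-end 125 bp RNA-Seq of polyadenylated RNA, 1 library per dog. The authors deposited raw read counts per gene, made, per the submitters' processing notes and the study's methods, with CASAVA 1.8, bcl2fastq 1.8.4, STAR 2.5.1b, CanFam3.1 and featureCounts. The strand setting of the counting is not given in the sources used here, so overlapping and antisense genes may share reads. Counts of 10000 and more were deposited rounded to 4 significant digits.

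The table held 23630 genes, of which 4296 had no read. The fit took the 14922 genes that reached a mean of 10 counts in 1 or more of the groups, and those that did so in luteal regression or the antigestagen group were tested (14578). edgeR 4.0.16 (R 4.3.3) was used with TMM scaling and the quasi-likelihood test, the spread between dogs being estimated from all 15 libraries and 4 groups. Benjamini-Hochberg adjustment ran over all genes tested, a DEG had p below 0.01 and adjusted p below 0.1, and all tests were two-sided. Every p-value in the text is from this fit unless another tool is named. The SE of a log2 ratio was its absolute value over the square root of the F statistic of the test. The 95% confidence intervals were built from this SE. The scripts were tested on simulated data. DESeq2 1.42.0, limma-voom (limma 3.58.1), other scaling, filters and sample sets, and leaving out each dog were alternatives. The newer quasi-likelihood method and the fit without antigestagen dogs 4 and 5 were added after seeing the data.

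The third luteal regression library of the study was not analysed here. Symbols came only from the study's gene tables, matched on gene identifier. The 2 genes of smallest p in each list were named, with 24 fixed genes, of which 11 had a name. Since no gene was a DEG, the 15 named genes of smallest p in each direction without overlap were added after the values were seen, as were the lists of proton pump, histocompatibility and actin-branching genes and further members of the lists. The comparison and all lists were chosen with earlier results of these data known. Each p-value rests on a spread between dogs shared over all 4 groups, with 2 dogs in luteal regression. It assumes that these 2 dogs vary like those of the other groups. The symbol SF1 was dropped from the steroidogenic regulators because it is ambiguous. No gene or promoter sequence was used. Results for some genes are not reported here.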

Additional observations from a re-analysis of the deposited data

Results flagged for a closer look

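In 6 of 86 values tested, the highest or lowest of the 5 antigestagen dogs stood apart from the rest by Dixon's criterion (the gap to the nearest dog over the whole range, on log2 CPM for genes), which chance alone does in about 1 in 20 groups. For FIGNL1 the ratio was 0.848, with antigestagen dog 2 at 10.7 CPM and the others at 7.28 to 7.71 CPM. The other 5 concerned antigestagen dog 4. It was highest for FAM167B (ratio 0.727, 56.1 CPM against 19.2 to 25.7) and for the macrophage marker sum (ratio 0.781, 321 CPM against 168 to 194). It was lowest for LCT (ratio 0.716, 0.414 CPM against 1.33 to 2.05), PTGDS (ratio 0.782, 27.7 CPM against 69.9 to 90.5) and GATA4 (ratio 0.83, 66.6 CPM against 100 to 109). Luteal regression had 2 dogs and could not be tested in this way.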

How the results depend on the processing

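The count of DEG was 0 in the reported fit and with robust estimation, without mid-gestation dog 1, without a filter on low counts, at an adjusted p below 0.05, with the newer quasi-likelihood method and without antigestagen dogs 4 and 5. It was 3 (2 higher and 1 lower in luteal regression) with DESeq2's size factors in edgeR, 2 (2 higher) with upper-quartile scaling, 1 (1 higher) with only the 7 libraries of both groups, 1 (1 higher) with the filter raised to a mean of 50 counts, and 23 (5 higher and 18 lower) without the luteolysis libraries. DESeq2's Wald test gave 920 (250 higher and 670 lower) and limma-voom 2408 (1063 higher and 1345 lower). Genes at p below 0.01 numbered 697, 1170 in DESeq2, 2408 in limma-voom and 288 without antigestagen dogs 4 and 5. As single dogs were left out, DEG ranged from 0 to 91 (0 to 28 higher and 0 to 63 lower), the most without antigestagen dog 1, and genes at p below 0.01 from 146 (without luteal regression dog 2) to 973 (without antigestagen dog 2). With 1 luteal regression dog left, it was assumed to vary like the other groups. The cause of these differences was not tested. Of the 1405 alternative log2 ratios of the 74 genes named by rule, 1 had the opposite sign (ESR1, -0.11 without luteal regression dog 2) and 178 passed the test. The medians of the glucocorticoid-responsive, matrix protease and apoptosis lists changed sign under some settings. No paired analysis was possible because the labels give no shared replicate numbers across groups. The depth, lowest in antigestagen dog 1, limits genes of few counts, and 2 luteal regression dogs limit every comparison.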
